A study of Mus musculus with 7 samples.

Results

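The genes described here encode CTCF and proteins that build, load or work beside the cohesin ring. They are Ctcf, Rad21, Smc3, Stag1, Nipbl, Pds5a, Pds5b and Top2b, 8 genes of the 22380 protein-coding genes annotated on the mouse mm9 genome. They were chosen by name, with earlier results of these data known. For each gene, all binding sites (peaks) with a summit inside the gene or within 50 kb of either end were taken. This gave 92 of the 76683 CTCF peaks, 63 of the 67369 Rad21 peaks and 55 of the 52436 sites that the authors sorted into classes. The question asked of these data was where CTCF and cohesin sat on the genes for their own machinery, at the promoters in the first place.

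The study profiled the binding of CTCF and of the cohesin subunit Rad21 in livers of male CD-1 mice (Crl:CD1(ICR)) aged 8 weeks by chromatin immunoprecipitation and sequencing (ChIP-seq), in which fragments of DNA held by an antibody are sequenced and pile up at bound sites. CTCF was measured in 4 libraries and Rad21 in 3, with no treatment and no mutation in any mouse. The paper describes them as matched sets from 4 male livers, apart from a CTCF library without a Rad21 partner. The mouse numbers in the sample titles nevertheless differ between the factors, so whether overlaps compare the same mice is unclear. The reads of each factor were merged before peaks were called, so that each peak has a single value, no spread between mice can be given, and no comparison between groups of mice can be tested. Whole liver holds several cell types, so that binding in fewer cells and weaker binding per cell cannot be told apart.

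CTCF is a DNA-binding protein with zinc fingers that recognizes a long motif in a fixed orientation. Cohesin is a ring of the subunits Smc1a, Smc3 and Rad21, with Stag1 or Stag2 attached, that is loaded onto DNA by Nipbl and extrudes loops until it meets CTCF. Loops are therefore typically held between CTCF motifs that point toward each other. The authors sorted sites into 4 classes. A TAD anchor bounds a topologically associating domain, a stretch of chromosome that contacts itself more than its surroundings, and an intra-TAD anchor bounds a smaller loop that they predicted within such a domain. Other CAC sites bind CTCF together with cohesin but anchor neither. Lone CTCF sites are those they listed as CTCF without cohesin, although 2 of the 19 around the 8 genes did share bases with a pooled Rad21 peak. Intra-TAD anchors were chosen with the help of motif strand and of the strengths of CTCF and Rad21, so that a strong peak in that class is not a separate observation. TAD anchors were chosen by motif and its strand, presence in all CTCF libraries and nearness to a domain boundary, not by peak score. Presence in all libraries may favour stronger peaks, and anchors shared with intra-TAD loops were counted as TAD anchors only. A strong peak at a TAD anchor is therefore not a fully separate observation either. Rad21 peaks that overlapped no CTCF peak are called CNC (cohesin-non-CTCF) peaks.

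The sequences below are the CTCF motifs of the promoter sites that the results turn on, shown because strength and motif orientation at these sites differed between the genes. Each line gives the motif of 19 bases in capitals with 5 flanking bases in lower case, read 5′ to 3′ along the motif's own strand. The first 6 lines are anchors, the next 3 are weaker promoter sites, and the last lies just outside the promoter of Nipbl.
Ctcf promoter: gcgggCCGCCTCTAGGTGTCACGAtgggg
Smc3 promoter: gctcgGAACCAGCAGGAGGCGCTCtgagc
Stag1 promoter: cagcgCGGCCAGCAGAGGGCGGTCgggac
Pds5a promoter, upstream site: gctgcCGGCCCCCCGGAGGCGCCCgcgcg
Pds5a promoter, intronic site: ttttcTGACCGATAGAGGCCGGTAgagga
Pds5b promoter: ccgtgCGGCCGGTAGGGGGCGCTGagaac
Rad21 promoter, upstream site: ctccgTGGCCAATAGGTGGCTGGTccaga
Rad21 promoter, intronic site: atcttCCCCCCCGAGGGGGCGGCCagctc
Top2b promoter: gggacTGGGCCCCGGAGGGAGCTAgcgaa
Nipbl upstream: ggataAGGCCTGTAGGCGACGCTGtgcaa
The motifs stand at chr8:108160656-108160674 (Ctcf, plus strand), chr19:53674396-53674414 (Smc3, plus), chr9:100543989-100544007 (Stag1, plus), chr5:66089598-66089616 and chr5:66088168-66088186 (Pds5a, both minus) and chr5:151476265-151476283 (Pds5b, plus), all on mm9. Those of the weaker sites stand at chr15:51823424-51823442 (minus) and chr15:51822693-51822711 (plus) for Rad21, at chr14:17197236-17197254 (minus) for Top2b and at chr15:8395455-8395473 (plus) for Nipbl. The authors' motif score, a log-odds score that is higher for a closer match to the CTCF motif, ran from 8.11 at the Top2b promoter to 23.9 at Stag1. It was 22.2 at Pds5b and 17.6 at Smc3. The Ctcf promoter followed at 14.4, and the Pds5a sites had 11.2 and 10.3.

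All 8 genes had a CTCF peak and a Rad21 peak with a summit within 1 kb of a transcription start, and in all 8 such a CTCF peak overlapped such a Rad21 peak by at least 1 bp. Within 500 bp of a start an overlapping pair was present at 4 of the 8, beside 44.5% of all genes. Over all protein-coding genes, 55.1% had a promoter CTCF peak, 52.3% a promoter Rad21 peak and 49.5% an overlapping pair. The promoters of the 8 genes were also rich in CpG dinucleotides, as those of many genes with broad expression are. Their ratio of observed to expected CpG in the 1000 bp around the main start ran from 0.827 at Top2b to 1.13 at Pds5a, above 0.6 in every case, while 46.1% of all genes had a ratio above 0.6. Among the 10325 genes with such a ratio, 86.2% had a promoter CTCF peak, 82.2% a Rad21 peak and 79.8% an overlapping pair. The high share among the 8 genes therefore lies near that of CpG-rich promoters in general.

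The strength of the promoter peaks differed widely between the 8 genes. The score deposited for a peak is 10 times the −log10 of its q-value, and it rose to 21752 at Stag1, 17944 at Pds5b, 8281 at Ctcf, 6269 at Pds5a and 5867 at Smc3. The strongest promoter CTCF peak reached 458 at Top2b, 300 at Rad21 and 101 at Nipbl. At this limit of 1 kb no gene's strongest peak lay between 458 and 5867, but the grouping depended on it. Within 2500 bp of a start Nipbl reached 5152, and within 500 bp Pds5a had no CTCF peak. The median over the 12325 genes with a promoter CTCF peak was 538. The strongest promoter Rad21 peak placed the same 5 genes on top, at 5142 for Stag1, 3356 for Pds5b, 3030 for Smc3, 2579 for Pds5a and 868 for Ctcf. It reached 202 at Nipbl, 163 at Top2b and 65 at Rad21, beside a median of 257 over the 11714 genes with a promoter Rad21 peak.

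**Figure D1:**
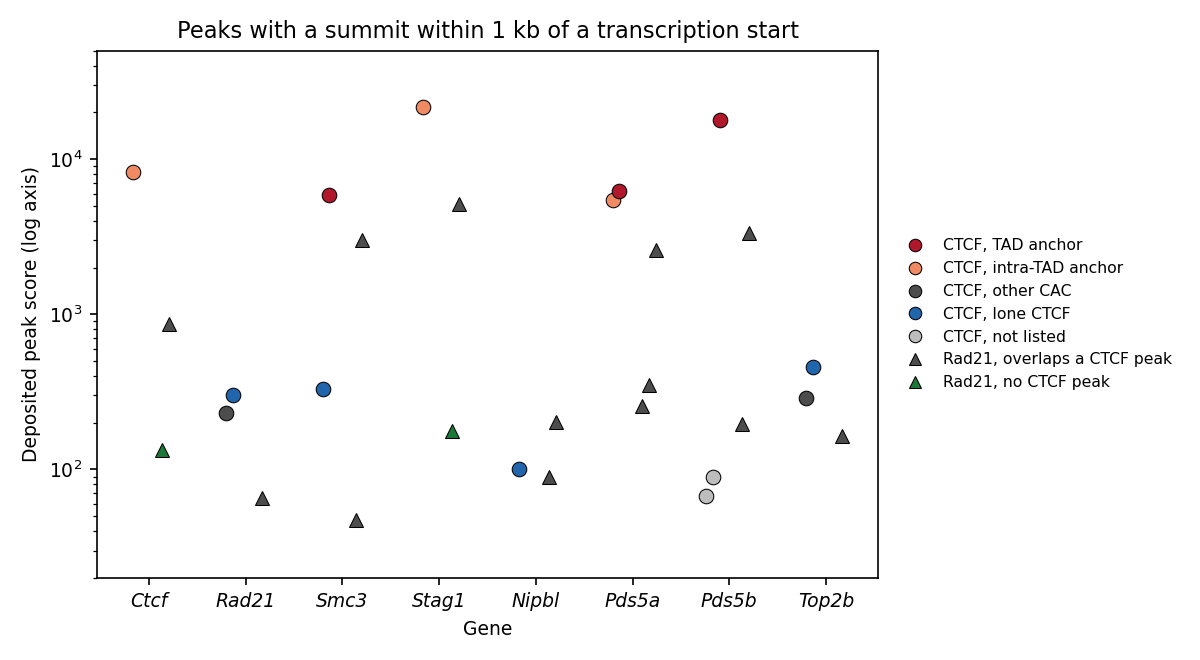
Deposited score (log axis) of each CTCF peak (circles) and Rad21 peak (triangles) with a summit within 1 kb of a start, by gene. Circles are coloured by the authors' class and triangles by whether the peak overlaps a CTCF peak. The 5 genes with an anchor at the promoter have a CTCF peak of at least 5867, while the promoter CTCF peaks of Rad21, Nipbl and Top2b stay at or below 458.

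The same 5 genes carried a TAD or intra-TAD anchor at a promoter, as did 8.52% of all genes. In these 5 genes a CTCF summit and a Rad21 summit also lay within 100 bp of each other, as they did at the promoters of 37.2% of all genes. At Rad21, Nipbl and Top2b the overlapping peaks had summits 275 bp, 212 bp and 391 bp apart. The 8 promoters held 14 CTCF peaks, of which 10 overlapped a Rad21 peak, and 15 Rad21 peaks, of which 2 were CNC peaks. Promoter CNC peaks occurred at Ctcf and Stag1, and at 9.33% of all genes.

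**Figure D2:**
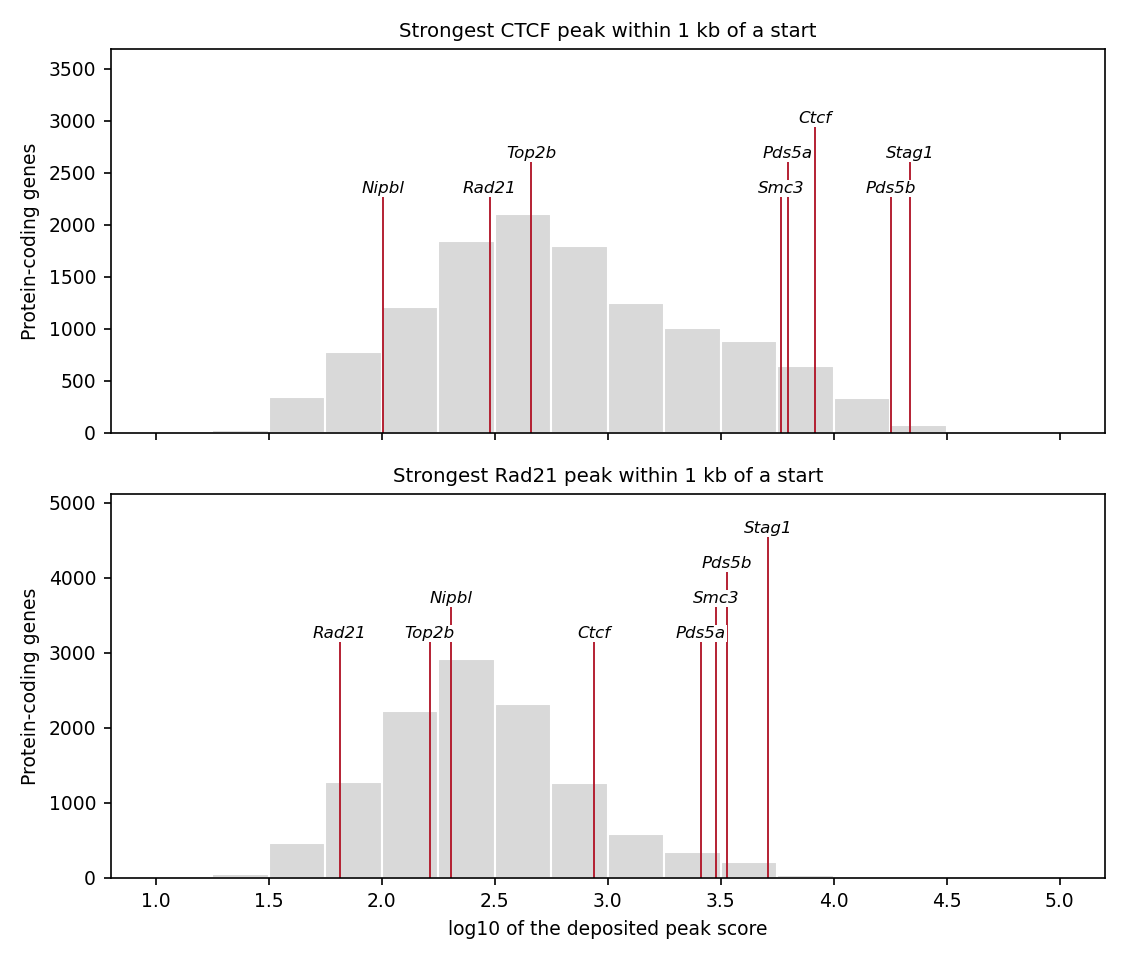
Number of protein-coding genes (y axis) by the log10 score of their strongest CTCF peak (top, 12325 genes) and Rad21 peak (bottom, 11714 genes) within 1 kb of a start. The red lines mark the 8 genes. For CTCF, Nipbl, Rad21 and Top2b lie below the median of 538 and the other 5 lie far into the upper tail. For Rad21, the same 3 lie below the median of 257.

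Ctcf (chr8:108160468-108206822, plus strand) had the most peaks for its length. Its promoter CTCF peak lay 161 bp inside the start, in an intron, where 898 fragments covered the summit (score 8281, fold of 21.3 over the local background). It was an intra-TAD anchor with the motif on the plus strand, in the direction of the gene, and 95.2% of the genes with a promoter CTCF peak had a weaker one. The overlapping Rad21 peak had its summit 4 bp away, a score of 868 and a fold of 9.67. A CNC peak with a score of 134 lay 321 bp upstream of the start.

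The other anchors around Ctcf flanked the gene on both sides. An intra-TAD anchor with a plus-strand motif lay 14004 bp upstream (CTCF 5300, Rad21 2603). An intra-TAD anchor with a minus-strand motif lay 3016 bp past the gene's end, near a start of Rltpr (CTCF 3292, Rad21 1290). Another with a plus-strand motif lay 77.8 kb downstream of the start (CTCF 3031, Rad21 2774). The promoter motif and the motif past the gene's end thus faced each other across the Ctcf gene. They read as follows.
Ctcf upstream anchor: agctgTCGCCACCAGGGGGCAGCAgaact
Ctcf end anchor: gggcgCAAACACCAGGGGACGCCAccctc
The upstream motif (chr8:108146463-108146481) scored 24.6, the highest score around the 8 genes, and that at the end (chr8:108209799-108209817) 16.4.

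The strongest Rad21 peak around Ctcf, and of all 8 windows, was not at an anchor. It lay 40.0 kb upstream with a score of 5270, on a CTCF peak with a score of 4623 that the authors listed as another CAC site. A CTCF peak with a score of 7783 lay 31.5 kb upstream of the start, 160 bp from a start of Fam65a. It had no CTCF motif in the class list, and its Rad21 peak had a score of 213. Within the Ctcf gene itself, between promoter and end, the CTCF peaks were lone sites with scores of 1168 and 94, and neither had a Rad21 peak.

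Rad21 (chr15:51794151-51823306, minus strand) encodes the kleisin subunit that closes the cohesin ring and is the protein that was immunoprecipitated here. Its own window held the fewest peaks of the 8 for both factors, 5 of CTCF and 1 of Rad21, although per length CTCF peaks were sparser at Stag1. The promoter held a lone CTCF peak 138 bp upstream of the start, with a score of 300 and 62 fragments, and a CAC peak 444 bp inside, with a score of 230 and 54 fragments. The only Rad21 peak of the window of 129 kb lay 719 bp inside the gene, with a score of 65 and 25 fragments. Of the genes with a promoter Rad21 peak, 6.45% had a weaker one. The upstream motif lay on the gene's strand and the intronic motif on the opposite strand, as printed above. Beyond the promoter the window held lone or unlisted CTCF peaks with scores of 230, 67 and 61, the second of them 296 bp from a start of Aard. No TAD or intra-TAD anchor lay in it.

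Smc3 (chr19:53674886-53720323, plus strand) encodes an ATPase subunit that pairs with Smc1a in the ring. A TAD anchor lay 479 bp upstream of its start, with a CTCF score of 5867, 605 fragments and a fold of 23.5. Its Rad21 peak had a score of 3030, a fold of 22.9 and a summit 10 bp from that of CTCF. A weak Rad21 peak with a score of 47 lay 385 bp inside the gene, under the tail of the same broad CTCF peak. A further TAD anchor lay 21.3 kb upstream, with CTCF 2013 and Rad21 1360 and its motif on the minus strand, so that the 2 TAD anchors pointed away from each other. A lone CTCF peak with a score of 331 also counted as promoter binding, since it lay 835 bp from an annotated transcript start near the gene's 3′ end. Past the gene's end, at 48.5 kb, a CTCF peak with a score of 3936 overlapped a Rad21 peak of 704.

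Stag1 (chr9:100498217-100858964, plus strand), a subunit that attaches to the ring, had the strongest promoter CTCF peak. It lay 0.128 kb inside the start of the main coding transcript, with a score of 21752, 2086 fragments and a fold of 28.7, in an exon that holds untranslated sequence. This was the only count of fragments in the windows that missed a whole number by more than 0.002 of −log10 p, by 0.0028. Of all CTCF peaks in the genome, 99.9% had a lower score. It was an intra-TAD anchor on the plus strand, and its Rad21 peak had a score of 5142 and 635 fragments. A CNC peak with a score of 178 lay 577 bp from a start. The annotated gene begins farther upstream of this main start, and no promoter peak lay at that outermost start.

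Stag1 spans 361 kb, and the remaining anchors lay deep in its introns. An intra-TAD anchor lay 267 kb from the main start (CTCF 425), and was the only anchor of the 8 windows that overlapped no Rad21 peak of the pooled list. A TAD anchor lay at 274 kb (CTCF 2011, Rad21 519). Both motifs were on the minus strand and so faced the promoter motif. They are printed for comparison with the promoter's.
Stag1 intronic intra-TAD anchor: acactGAACCACAAGAGGGCAGTAgggtt
Stag1 intronic TAD anchor: agaaaCCATCACTAGGGGGCACTGgagca
They stand at chr9:100810960-100810978 and chr9:100817723-100817741, with motif scores of 17.9 and 18.2. With 15 CTCF peaks, the long window had 3.26 CTCF peaks per 100 kb, the lowest density of the 8.

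Nipbl (chr15:8241225-8394463, minus strand), the protein that loads cohesin onto DNA, had the lowest score of the 8 genes for the strongest promoter CTCF peak. That peak lay 381 bp inside the gene with a score of 101, and it was listed as a lone CTCF site without a motif, although it overlapped a Rad21 peak with a score of 89 in the pooled list. The second promoter Rad21 peak, with a score of 202, lay 902 bp upstream. It overlapped a far stronger CTCF peak (score 5152, 634 fragments, Rad21 202) whose summit lay 1007 bp upstream of the start, 7 bp outside the promoter limit. Counted with that site, Nipbl would come close to Smc3 in CTCF score (5867), but not in Rad21 score (3030). The site was listed as another CAC site, and its motif, on the plus strand, pointed away from the gene.

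The local background at the weak promoter peak of Nipbl was 37.9 fragments, beside 89 at its summit, which gave a fold of 2.32. At the upstream site the background was 38.0. The lowest background of any CTCF peak in the windows was 5.99. The part of the strong neighbour in the low fold was not tested. Farther away, a CTCF peak with a score of 2566 lay 6.76 kb upstream with the strongest Rad21 peak of the window, at 611. A TAD anchor lay 62.1 kb inside the gene (CTCF 1096, Rad21 240), with its motif on the plus strand, against the direction of the gene. A CAC site with a score of 948 lay in the coding sequence near the gene's 3′ end, 186 bp from it.

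Pds5a and Pds5b encode related proteins that bind the ring and regulate its release from DNA together with Wapl. Pds5a (chr5:66006499-66089095, minus strand) had anchors on both sides of its start. A TAD anchor lay 510 bp upstream, with a CTCF score of 6269 and 884 fragments, and an intra-TAD anchor lay 882 bp inside, with 5419 and 806 fragments. Both motifs were on the minus strand, in the direction of the gene. Rad21 was unequal across them, with a score of 2579 and 353 fragments at the intronic site and a score of 349 and 114 fragments at the upstream site. A Rad21 peak with a score of 258 lay between them, 64 bp upstream of the start, over the tail of the upstream CTCF peak. The folds of the CTCF peaks, 12.7 and 11.6, were low for their scores, and both were measured against a local background of 68.4 fragments.

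The other anchor of the Pds5a window lay 27.1 kb upstream, again on the minus strand (CTCF 839, Rad21 397). Of the 16 CTCF peaks of the window, 11 were not in the class list, the most of any of the 8 windows, and the median CTCF score was 80.5. Next to the promoter anchors the Pds5a window was therefore made mostly of weak sites. Past the gene's 3′ end Rad21 peaks without CTCF had scores of 53, 254 and 104.

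Pds5b (chr5:151476314-151613265, plus strand) had a TAD anchor 47 bp upstream of its start. The CTCF peak had a score of 17944, 1621 fragments and a fold of 33.2, the highest fold of the 8 windows, and 99.3% of the genes with a promoter CTCF peak had a weaker one. Its Rad21 peak had a score of 3356 and 373 fragments. Weaker overlapping peaks lay 612 bp inside the gene, with scores of 89 for CTCF and 196 for Rad21. A CTCF peak with a score of 67 lay 510 bp from an internal start. The strongest Rad21 peak of the window, at 3457, was not at the promoter but at an intra-TAD anchor 7.95 kb upstream (CTCF 5256), 263 bp from a start of N4bp2l2.

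All 3 intra-TAD anchors around Pds5b had the motif on the minus strand, opposite to the promoter anchor. Those inside the gene lay at 29.1 kb (CTCF 2537, Rad21 452) and 44.2 kb (CTCF 1452, Rad21 363) and faced the promoter motif, while the upstream motif and the promoter motif pointed away from each other. The 3 motifs are given in order along the gene.
Pds5b upstream anchor: gcgtcCATCCACCTGGGGGCGCCAagcac
Pds5b intronic anchor, nearer: tctgaGAACCAGCAGGTGGCACACtcatt
Pds5b intronic anchor, farther: tacaaTATCCACTAGGTGGAGCTGcacat
They stand at chr5:151468443-151468461, chr5:151505462-151505480 and chr5:151520583-151520601. Their motif scores were 17.9, 17.8 and 18.9, each below the 22.2 of the promoter.

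Top2b (chr14:17197693-17263301, plus strand) encodes a type II topoisomerase, an enzyme that relieves torsion by passing strands through a break, and that is known to be found beside CTCF and cohesin. Its promoter was weakly bound. A lone CTCF peak with a score of 458 and 96 fragments lay 563 bp upstream, and a CAC peak with a score of 289 lay 586 bp inside, overlapping a Rad21 peak with a score of 163 and 47 fragments. The strong sites lay elsewhere. A TAD anchor lay 15.2 kb inside the gene with CTCF 4044 and Rad21 2982, and another lay 3761 bp past the gene's end, in an intron of Rarb, with CTCF 3983 and Rad21 1426. Their motifs, on the minus and on the plus strand, pointed away from each other.
Top2b intronic anchor: aaggaTAGACATTAGGTGGAGCTCtagta
Top2b end anchor: ctggtTAGCCAGCAGGGGTCACTAcaaag
They stand at chr14:17212897-17212915 and chr14:17267188-17267206. The intronic anchor had the weaker motif match, with a motif score of 10.4 beside 20.8, and the stronger Rad21 peak.

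**Figure D3:**
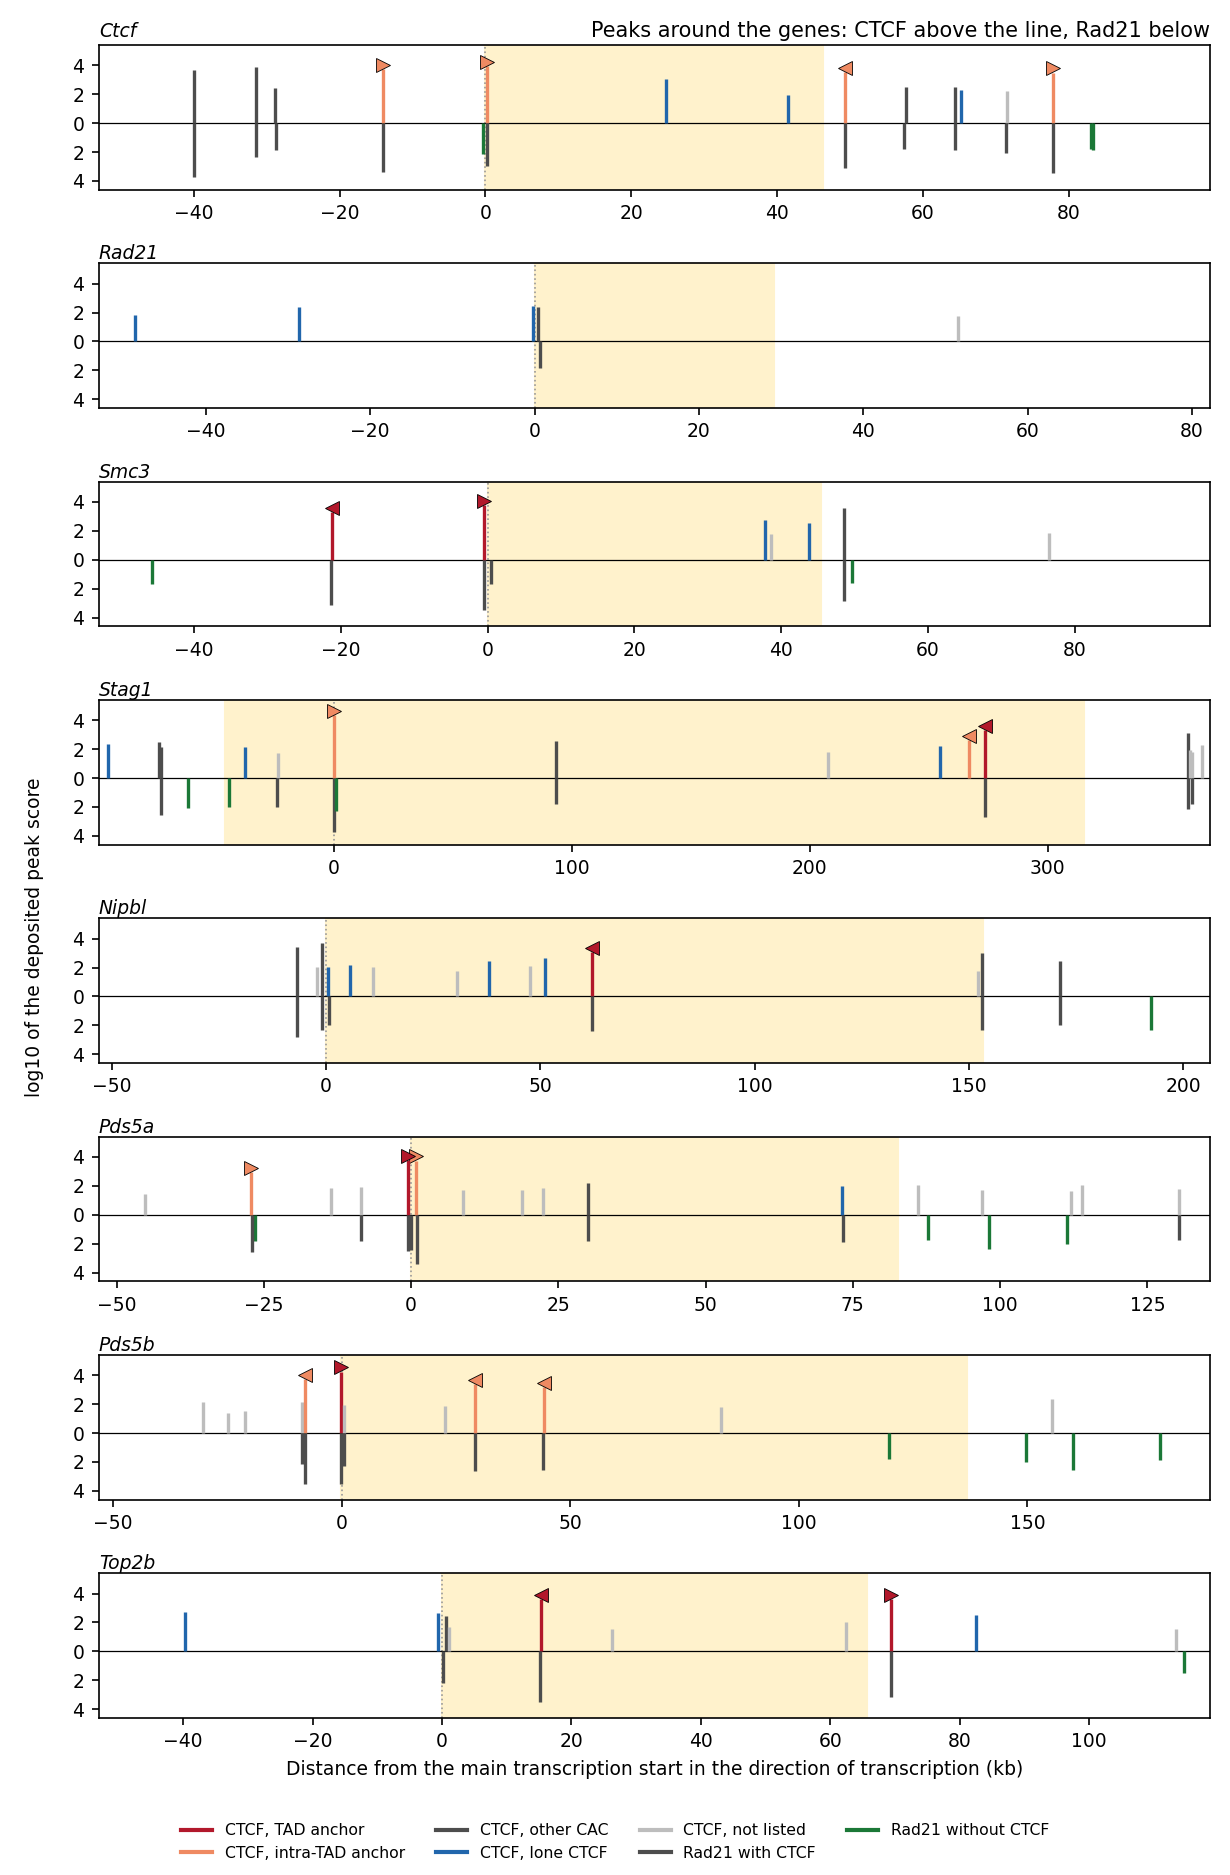
Peaks around the 8 genes, with distance from the main transcription start in the direction of transcription (kb, x axis) and the log10 deposited score of CTCF peaks upward and of Rad21 peaks downward. Shading marks the gene, the dotted line its main start, colours the class or the presence of CTCF, and arrowheads at anchors the motif, pointing right where it lies on the gene's strand. Arrowheads at the promoters of Ctcf, Smc3, Stag1, Pds5a and Pds5b point into the gene, those inside Stag1, Nipbl, Pds5b and Top2b point back toward the start, and the Rad21 window has none.

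The 8 windows held 19 anchors, 8 of TADs and 11 within TADs, and 18 of them overlapped a Rad21 peak. Intra-TAD anchors were chosen with the help of Rad21 strength, so this overlap is partly set by the class definition. The share over all anchors was not computed. At the promoters stood 6 anchors, 3 of each kind, and in all 6 the motif lay on the gene's strand. Over all genes, 1141 of 2012 pairs of a gene and a promoter anchor had this orientation, 56.7%. Of the anchors inside a gene but away from its promoters, all 6, in 4 genes, had the motif opposite to the gene, beside 3328 of 5987 such pairs over all genes, 55.6%. Of the 7 anchors outside gene and promoters, 4 had the motif on the gene's strand, beside 51.7% of 29056 such pairs over all genes. These orientations were counted after the loci had been seen, and anchors of the same gene are not independent.

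Over the windows as a whole, the share of CTCF peaks that overlapped a Rad21 peak was below that of the genome. It was 48.9% (45 of 92, 95% Wilson interval 38.9 to 59.0%) beside 67.3% over all CTCF peaks (interval 67.0 to 67.6%). Of the Rad21 peaks, 28.6% (18 of 63, interval 18.9 to 40.7%) were CNC peaks, beside 22.7% over all, which lies inside the interval. These intervals cover counting error only and take peaks as independent, which neighbouring peaks are not. The CTCF peaks with Rad21 had a median score of 1096, from 46 to 21752, and those without had a median of 108, from 26 to 1168, so the ranges overlapped. CNC peaks had a median Rad21 score of 86.5 and none above 338, while Rad21 peaks with CTCF reached 5270 around a median of 240.

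The median CTCF score of the windows was 199, beside 321 over all CTCF peaks, and the median Rad21 score was 163 beside 164. By window, the median CTCF score was 1168 at Ctcf, 583 at Smc3 and 321.5 at Top2b, and below 321 at the other 5 genes, with the lowest median, 80.5, at Pds5a. Lone CTCF sites made up 19 of the 55 classed sites, 34.5% (interval 23.4 to 47.7%), beside 20.1% of the whole class list, and other CAC sites 17, 30.9% (interval 20.3 to 44.0%), beside 51.4%. Anchors made up 34.5% (interval 23.4 to 47.7%) beside 28.4%. At sites with both a motif and a Rad21 peak, the Rad21 summit lay a median of 9.5 bp downstream of the CTCF summit along the motif, over 32 sites of which 19 had it downstream. The median over 35443 sites of the genome was 17 bp.

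The class list also flags overlap with peaks of Stag1, Stag2 and Top2b from public data that the authors used, so that products of 2 of the genes can be placed on their own loci. All 19 anchors carried the Stag1 flag and the Stag2 flag, beside 92.8% and 96.6% of all anchors. The Top2b flag was on 16 of the 19, 84.2% (interval 62.4 to 94.5%), beside 74.9%. The promoter anchor of Stag1 carried its own Stag1 flag, and both TAD anchors of Top2b carried the Top2b flag. At the Top2b promoter, the weak lone CTCF site and the CAC site carried the Top2b flag too. The promoter anchor of Ctcf lacked the Top2b flag. Over all classed sites of the windows the Stag1 flag was on 54.5% (interval 41.5 to 67.0%), beside 70.6% of the list. The Stag2 flag was on 78.2% (interval 65.6 to 87.1%) beside 88.1%, and the Top2b flag on 52.7% (interval 39.8 to 65.3%) beside 54.8%. Of the 19 lone CTCF sites, 15.8% carried the Stag1 flag, 47.4% the Stag2 flag and 21.1% the Top2b flag. Over all 10553 lone CTCF sites the shares were 26.9%, 57.5% and 18.0%, each inside the interval of the share in the windows.

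The number of peaks around the genes was not high. The density of CTCF peaks ran from 3.26 per 100 kb at Stag1 to 8.88 at Ctcf, with a median of 5.30 beside 5.57 over all genes, and 3 of the 8 genes lay above that median. For Rad21 it ran from 0.774 at Rad21 to 8.88 at Ctcf, with a median of 3.44 beside 4.58, and 2 of the 8 lay above. Ctcf and Pds5a had the densest windows for both factors. For CTCF, 73.5% of all genes were less dense than Ctcf, and for Rad21, 16.6% were less dense than Rad21.

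**Figure D4:**
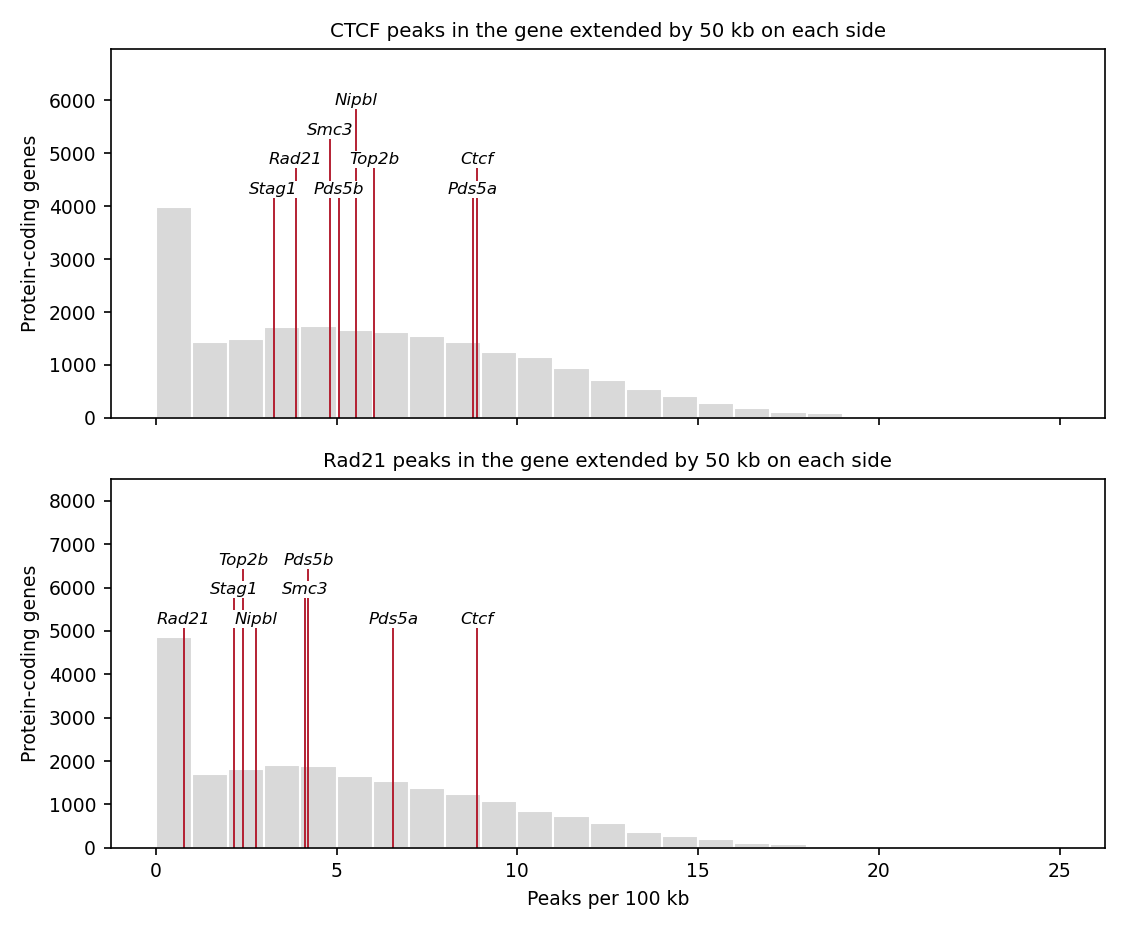
Number of protein-coding genes (y axis) by the number of CTCF peaks (top) and Rad21 peaks (bottom) per 100 kb of the gene extended by 50 kb on each side, with red lines at the 8 genes. The 8 genes lie within the bulk of the distribution, with CTCF densities of 3.26 to 8.88 and Rad21 densities of 0.774 to 8.88.

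Promoter peaks were also counted at other genes of the same and related pathways. Of 11 further cohesin genes, 10 had a promoter CTCF peak, 10 a Rad21 peak and 9 an overlapping pair, beside 55.1%, 52.3% and 49.5% of all genes and 79.8% for pairs at CpG-rich promoters. Esco1, an acetyltransferase for Smc3, reached a CTCF score of 22933 and was the only gene of that list with a promoter anchor. Its Rad21 peak had a score of 665, beside the median of 257 over genes with a promoter Rad21 peak. Stag2, the paralog of Stag1, had 14210 for CTCF and 3594 for Rad21. Next came Sgol1 at 1573 and 527, Pttg1 at 938 and 41, and Wapal, which encodes the release factor Wapl, at 681 and 505. The others with CTCF peaks ranged from 314 at Smc1a through Espl1 (258), Mau2 (198, the partner of Nipbl) and Hdac8 (138, without a Rad21 peak) to 109 at Cdca5. Esco2 had a Rad21 peak of 117 and no CTCF peak.

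The 8 condensin genes, which encode a related ring complex that compacts mitotic chromosomes, all had an overlapping pair at a promoter and 0 had an anchor, beside 49.5% and 8.52% of all genes. Their strongest promoter CTCF scores ran from 145 at Ncaph to 768 at Ncapd2, with Ncapd3 (579), Ncapg (474), Smc4 (366), Ncaph2 (343), Smc2 (230) and Ncapg2 (204) between them, and their Rad21 scores from 78 to 367. Of 6 germline forms and paralogs, 4 had an overlapping pair, and these were weak. Ctcfl, the paralog of Ctcf, had a CTCF score of 215, Top2a 146, Stag3 100 and Rec8 41, while the meiotic genes Smc1b and Rad21l had no promoter peak of either factor. For CTCF, the range of the condensin genes held the strongest promoter scores of Rad21 and Top2b, and Nipbl lay below it. For Rad21, it held those of Nipbl and Top2b, and the Rad21 gene lay below it.

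As a check on the labelled tissue, CNC peaks were looked up at promoters of genes expressed in hepatocytes and of genes of other lineages, since such peaks occur at active regulatory sites. Of 8 hepatocyte genes, 3 had a promoter CNC peak (Apob, Hnf4a and Ttr), and of 8 genes of other lineages 0 had, with 9.33% of all genes as the background. With 8 genes in each list, these counts are too few to decide whether the tissue label is right. A promoter Rad21 peak of any kind was present at 5 and 1 of them, beside 52.3% of all genes, and a promoter CTCF peak at 4 and 3, beside 55.1%. The strongest promoter peaks of the hepatocyte genes were those of Apob, at 6017 for CTCF and 1826 for Rad21, with an anchor. Lower scores for CTCF and Rad21 stood at Apoa1 (202 and 176), Hnf4a (98 and 236) and Cyp7a1 (55 and 119), and Ttr had a Rad21 peak of 227 alone. Among the genes of other lineages, Gfap had an anchor with 4763 for CTCF and 2109 for Rad21, while Pax5 and Ins2 had CTCF peaks of 162 and 101 and no Rad21 peak. Alb, which encodes albumin, had no promoter peak of either factor, nor had the hepatocyte genes Fgb and Serpina1a.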

How the data were processed

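The deposited lists hold CTCF and Rad21 ChIP-seq peaks of mouse liver pooled per factor (4 and 3 libraries). The authors merged all reads of a factor, used Bowtie2 to map them to mm9 at unique positions and MACS2 to call peaks, and discarded blacklisted regions and peaks that held PCR duplicates alone. A deposited peak score is 10 times the −log10 q-value without its decimals. A deposited fold is a ratio, fragments at the summit over local background, each with a pseudocount of 1. The deposited −log10 p-value comes from a Poisson model. Fragments at the summit and background were recovered from fold and −log10 p, whole within 0.002 at 91 of 92 CTCF peaks and 63 of 63 Rad21 peaks of the windows. How many fragments a given library gave at a peak is unknown. The class list adds motif score, strand and 0 or 1 flags, whose names rest on the column order of the study's own listing.

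Genes came from GENCODE vM1 (NCBIM37). A peak was placed by its summit, in the gene extended by 50 kb, or at a promoter within 1 kb of any annotated start. The main start is that of the coding transcript with the longest coding sequence. Motifs were located with the JASPAR core CTCF matrix, on the deposited strand at 44 of 44 sites. Sequences are from NCBIM37. The 8 genes were named in full, with all promoter peaks, all anchors and the strongest peak of each factor. Genes of other lists were named where a promoter peak was at least as strong as the weakest of the 8, or by list where it held 6 or fewer. The hepatocyte genes without a promoter peak were named in addition. The genes and lists were chosen with earlier results of these data known. No test was run, because each factor has 1 pooled list. Pairing and pileup recovery were tested on simulated data. Software was Python 3.11.15 with pandas 2.3.3, pysam 0.24.0, NumPy 2.4.6, Matplotlib 3.10.9 and SciPy 1.17.1.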

Additional observations from a re-analysis of the deposited data

How the results depend on the processing

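Of 81 values recomputed under other settings, 73 stayed within 1.5 times the reported count or within the 95% interval of a reported share or median. Within that tolerance the CTCF peaks of the windows still ranged from 64 (score of at least 100) to 135 (100 kb), the median CTCF score reached 282 (20 kb), and 6 of 8 promoters had each factor within 500 bp, where Pds5a and Top2b had no CTCF peak and Rad21 and Nipbl no Rad21 peak. With promoters limited to 500 bp, 4 of the 8 genes kept an overlapping pair (44.5% of all genes), and with summits within 100 bp of each other 5 did. The windows held 41 CTCF and 21 Rad21 peaks in the gene alone, 108 Rad21 peaks at 100 kb, and 38 Rad21 peaks with a score of at least 100. With summits within 100 bp, 37.0% of CTCF peaks had Rad21 (55.5% over all) and 46.0% of Rad21 peaks lacked CTCF (36.8% over all). Leaving out each window in turn gave median CTCF scores of 146 to 274.5, the highest without Pds5a, and median Rad21 scores of 147 to 196. Counting starts of protein-coding transcripts alone, an alternative added after seeing the data, left 8 of 8 promoters with each factor and with the pair. With the outermost start alone, Stag1 lost its promoter peaks. No paired analysis was possible because each list pools the libraries of a factor. Single mice and libraries could not be left out for the same reason.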
